A study of Homo sapiens with 4 samples.

Results

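The genes of the MHC class I presentation machinery were compared between 2 lines of human acute myeloid leukaemia cells, with 2 Affymetrix gene arrays per line. The set was given as a list of 10 genes known for this pathway, drawn up with earlier results of these data known: HLA-E, HLA-F, B2M, TAP1, TAP2, TAPBP, NLRC5, ERAP1, ERAP2 and PSMB9. For each gene the brightest probe set over the 4 arrays was read, among those that the platform annotation assigns to that gene alone. This gave values for 8 of the 10 genes, out of 18417 genes tested. HLA-E was not listed in the annotation used here and was not analysed. HLA-F occurred only in 3 probe sets that are also assigned to another gene, so its values are given as those of shared probe sets.

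MV4-11 is an established line known for its MLL fusion and its mutant, constantly active FLT3, and the labels call it drug-sensitive with high EZH2. MV4-11R was grown out of it by 3 months in rising amounts of PKC412 (midostaurin, a multikinase inhibitor that acts on FLT3), and the labels call it drug-resistant with low EZH2. No untreated line carried in parallel for the same time is among these samples, so drug selection and time in culture cannot be told apart, and the labels do not say whether PKC412 was present at harvest or whether MV4-11R is 1 clone. Values are log2 signals, so a difference of 1 is a doubling. The words rose and fell are kept for genes with an adjusted p under 0.05 in limma's test over all genes. The labels do not name separate cultures, so the replicate spread behind each p-value may be only technical. In bulk RNA, fewer cells with a transcript and less of it per cell cannot be told apart.

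Array medians ran from 6.75 to 6.78. EZH2 mRNA, the gene in the labels, differed by -0.14 (SE 0.20, adjusted p = 0.734) between the lines, and its arrays overlapped. Defining myeloid genes such as SPI1 (11.37 and 11.52 in MV4-11, 11.34 and 11.47 in MV4-11R) were well above 6.26, the 95th percentile of 341 olfactory receptor genes, used here as a guide to background. Of 10 measured myeloid markers 0 rose, 3 fell (FLT3 -0.93, LYZ -0.69 and MEF2C -5.19) and 1 lay under the guide (KIT). Their mean level was 9.43 and 9.56 in MV4-11 against 8.94 and 8.84 in MV4-11R, a gap in which MEF2C weighs most. By sign alone 7 of the 10 were lower and 3 higher, among these CD14 (0.77) and MPO (0.47), which did not pass. Of 8 T and NK cell markers 5 lay under that guide, including CD3D, CD3E and CD3G, and 1 rose, NKG7, by 0.94. The mean level of that list was 6.07 and 5.99 on the MV4-11 arrays and 6.22 and 6.17 on the MV4-11R arrays. Of 4 measured B cell markers PAX5 rose by 0.80 and CD79B fell by 1.09, with 1 under the guide (MS4A1) and mean levels of 6.66 and 6.71 in MV4-11 against 6.74 and 6.59 in MV4-11R. Of 4 erythroid and megakaryocytic markers ITGA2B fell by 0.67 and 2 lay under the guide, with mean levels of 6.48 and 6.43 against 6.31 and 6.27. None of 6 epithelial and fibroblast markers passed, nor had any an unadjusted p under 0.05 in limma's test. The part of these shifts in the results was not tested.

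Class I molecules show short peptides from inside the cell to CD8 T cells. The proteasome cuts proteins into peptides, and in immune cells the subunit PSMB9 replaces a constitutive one to form the immunoproteasome. TAP1 and TAP2 pair into the pump that carries peptides into the endoplasmic reticulum, where TAPBP (tapasin) bridges the pump to empty class I molecules, and the aminopeptidases ERAP1 and ERAP2 trim peptide ends. Each class I heavy chain, HLA-E and HLA-F among them, needs the light chain B2M to reach the surface. NLRC5 is a transactivator that works through factors bound at class I, B2M and TAP1 promoters, and interferon induces most of these genes. By the gene order of RefSeq, 6 of the 10 genes lie on the short arm of chromosome 6 (6p), in the MHC, and 4 of those 6 had a probe set of their own.

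TAP1 and PSMB9 start 487 bases apart and are read in opposite directions, and their measured differences had opposite signs. Their windows are shown with those of TAPBP, the other gene that fell, and of B2M, which lies outside chromosome 6. Each window is the 250 bases before the start site, read 5′ to 3′ on the gene's own strand, from RefSeq (GRCh38.p14). Capitals mark matches to motifs of factors known at these promoters, searched on both strands.
TAP1, chr6:32853705-32853954, minus strand: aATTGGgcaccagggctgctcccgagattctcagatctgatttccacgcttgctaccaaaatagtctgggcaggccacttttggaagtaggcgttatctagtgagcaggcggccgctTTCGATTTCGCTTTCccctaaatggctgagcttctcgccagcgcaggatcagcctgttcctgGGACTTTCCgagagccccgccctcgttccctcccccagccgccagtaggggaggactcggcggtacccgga
PSMB9, chr6:32853942-32854191, plus strand: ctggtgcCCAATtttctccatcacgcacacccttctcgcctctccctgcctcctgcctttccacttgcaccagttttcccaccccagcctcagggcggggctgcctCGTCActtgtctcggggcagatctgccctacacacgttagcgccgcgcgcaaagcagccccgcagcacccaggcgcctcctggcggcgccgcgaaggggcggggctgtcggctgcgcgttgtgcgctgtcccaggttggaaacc
TAPBP, chr6:33314079-33314328, minus strand: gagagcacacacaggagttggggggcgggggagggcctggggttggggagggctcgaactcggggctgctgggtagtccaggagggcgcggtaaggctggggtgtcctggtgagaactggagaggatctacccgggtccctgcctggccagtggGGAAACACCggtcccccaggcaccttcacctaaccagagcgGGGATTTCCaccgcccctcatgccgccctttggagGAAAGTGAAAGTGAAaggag
B2M, chr15:44711267-44711516, plus strand: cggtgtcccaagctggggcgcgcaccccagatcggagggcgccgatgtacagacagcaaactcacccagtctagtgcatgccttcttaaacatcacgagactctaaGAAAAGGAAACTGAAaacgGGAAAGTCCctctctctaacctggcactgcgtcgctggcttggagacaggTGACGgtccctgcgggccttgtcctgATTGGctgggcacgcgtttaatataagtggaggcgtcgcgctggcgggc

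Interferon elements, read by IRF factors, were searched as GAAANNGAA, which matched in overlapping pairs in the windows of TAP1, TAPBP and B2M, and had no match in that of PSMB9. In TAP1 they lay 133 to 119 bases before the start, in B2M 144 to 130 and in TAPBP 20 to 6. Counting every RefSeq start of a gene, a match was found in 6 of the 8 members with a window, and in 6.88% of 35114 RefSeq windows of this length taken 1 at a time. The Y box core (CCAAT), bound by the NF-Y complex, matched in B2M 49 to 45 bases before the start, and also at the far end of the TAP1 and PSMB9 windows, where it is 1 site read from both sides because those windows share 13 bases. It occurred in 32% of all windows. The X2 box core (TGACG), bound by CREB and ATF factors, matched in B2M and PSMB9 and occurred in 21.2% of all windows. Of 3 forms of the NF-kB core, the TAP1 and B2M windows shown matched GGNNTTTCC (5.49% of all windows), a form chosen after the first forms were run. TAPBP matched it 96 to 88 and 55 to 47 bases before the start. The bases at 55 to 47 also matched GGGNNTTCC (5.78%) and GGGANNTCC (4.04%), so there the 3 forms mark 1 site. The gamma activated site (TTCNNNGAA, 6.57%) had no match in the 4 windows shown, which says only that these letters are not there. TAP1 has another RefSeq start, whose window is not shown and matched TTCNNNGAA 189 to 181 and GGGANNTCC 38 to 30 bases before that start. These are letter matches, not sites shown to be bound.

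Of the 8 measured members 2 fell, PSMB9 and TAPBP, 0 rose and 6 did not pass (at an unadjusted p under 0.05 limma counted 2 lower and 1 higher, NLRC5). Over all genes 15.1% passed, with 7.13% falling and 7.92% rising. The arrays of the 2 lines did not overlap for 6 of the 8 members, and for 55.6% of all genes. The median difference over the 8 was -0.14, against 0.01 over all genes. Both genes that fell lie on 6p, and none of the 4 measured members on other chromosomes passed.

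PSMB9, the inducible proteasome subunit (Entrez gene 5698, chromosome 6), read 9.21 and 9.50 in MV4-11 and 8.57 and 8.58 in MV4-11R. Both MV4-11R arrays were low and close together, under both MV4-11 arrays. The mean went from 9.35 ± 0.21 to 8.57 ± 0.0092 (SD, n = 2), a fall of 1.72-fold (log2 difference -0.78, SE 0.13, 95% interval -1.11 to -0.45, adjusted p = 0.0157). Leaving out MV4-11 replicate 2 ended the call (-0.63, adjusted p = 0.0564).

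TAPBP, the bridging protein of the loading complex (Entrez gene 6892, chromosome 6), read 12.44 and 12.55 in MV4-11 against 11.80 and 11.96 in MV4-11R. Again both MV4-11R arrays were below both MV4-11 arrays. The mean fell 1.53-fold, from 12.50 ± 0.072 to 11.88 ± 0.12 (SD, n = 2), or -0.62 in log2 (SE 0.12, adjusted p = 0.0218, 95% interval -0.90 to -0.33). Leaving out replicate 1 of MV4-11 (-0.67, adjusted p = 0.0592), its replicate 2 (-0.57, 0.0910) or replicate 1 of MV4-11R (-0.53, 0.0806) ended the call.

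Neither chain of the peptide pump passed. TAP1, one of its chains (Entrez gene 6890, chromosome 6), read 8.67 and 8.75 in MV4-11 and 8.84 and 9.19 in MV4-11R. The MV4-11R arrays were both above MV4-11, but replicate 1 by little, and the difference of 0.30 (SE 0.15, 95% interval -0.05 to 0.66, adjusted p = 0.245) did not pass. Leaving out replicate 1 or replicate 2 of MV4-11R moved it to 0.48 or 0.13. TAP2, the other chain (Entrez gene 6891, chromosome 6), read 8.77 and 8.79 in MV4-11 and 8.80 and 8.72 in MV4-11R, with the lines overlapping. Its difference was -0.01 (SE 0.11, 95% interval -0.27 to 0.25, adjusted p = 0.962), so the interval leaves out a fall as large as the one measured for PSMB9 or TAPBP.

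The divergently read pair TAP1 and PSMB9 was also compared within each array. TAP1 minus PSMB9 was -0.54 and -0.75 on the MV4-11 arrays and 0.28 and 0.61 on the MV4-11R arrays. Signals of different probe sets do not share a scale, so the sign of this value has no meaning. Only its change between the lines can be read. The line differences of the 2 genes were 1.09 log2 units apart, against SDs of 0.15 and 0.24 (n = 2 each). The exact 2-sided permutation test over arrays gave p = 0.333, the smallest that 2 arrays against 2 allow, and the pair was chosen after its values were known. For TAP1 minus TAP2 the lines differed by 0.32 (exact permutation p = 0.333, the same limit).

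B2M, the shared light chain (Entrez gene 567, chromosome 15), read 11.77 and 11.90 in MV4-11 and 11.36 and 11.71 in MV4-11R. The lines did not overlap, but MV4-11R replicate 2 lay close to MV4-11. The difference of -0.30 (SE 0.15, 95% interval -0.66 to 0.07, adjusted p = 0.264) did not pass, and leaving out replicate 1 or replicate 2 of MV4-11R moved it to -0.12 or -0.47. The 3 probe sets shared by HLA-F and another gene had differences of -0.41, -0.38 and -0.37. The brightest of them read 10.69 and 10.95 in MV4-11 and 10.32 and 10.57 in MV4-11R, with no overlap. None passed (adjusted p from 0.226 to 0.279 over all probe sets), and the share of each gene in that signal is unknown.

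The trimming enzymes, neighbours on chromosome 5, showed no difference past the test. ERAP1 (Entrez gene 51752) read 8.43 and 8.42 in MV4-11 and 8.31 and 8.36 in MV4-11R, a difference of -0.09 (SE 0.11, 95% interval -0.35 to 0.17, adjusted p = 0.678). ERAP2 (Entrez gene 64167) read 8.11 and 8.30 in MV4-11 and 7.80 and 8.24 in MV4-11R, so its arrays overlapped. Its difference of -0.19 (SE 0.17, 95% interval -0.61 to 0.23, adjusted p = 0.559) rested on MV4-11R replicate 1, without which it was 0.03.

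NLRC5, the class I transactivator (Entrez gene 84166, chromosome 16), had the largest difference above 0 among the members. It read 8.06 and 8.34 in MV4-11 and 8.62 and 8.69 in MV4-11R, with both MV4-11R arrays higher. The difference of 0.46 (SE 0.13, 95% interval 0.13 to 0.78) did not pass (adjusted p = 0.0729). Leaving out replicate 1 or replicate 2 of MV4-11 moved it to 0.32 or 0.60.

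**Figure D1:**
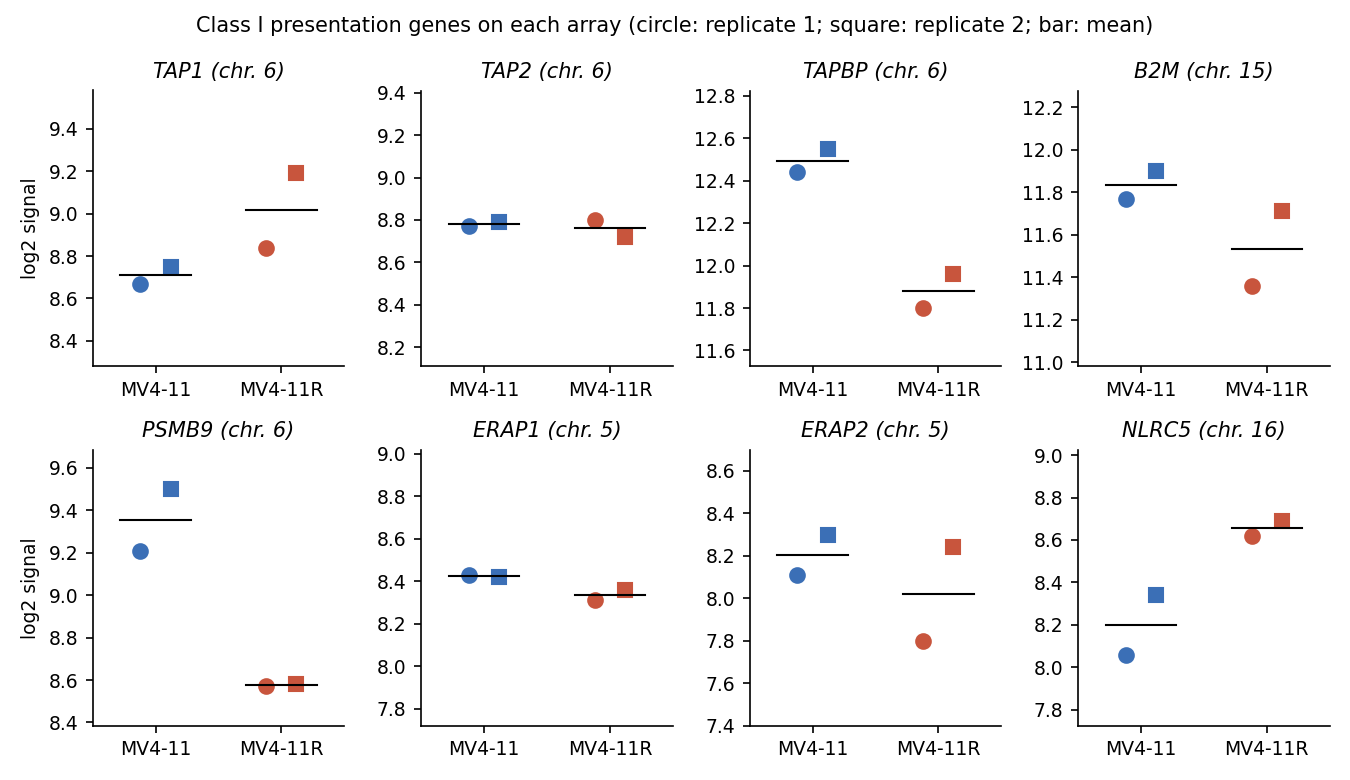
Log2 signal of the 8 measured members on each array, with all panels spanning the same range in log2 units. Circles are replicate 1, squares replicate 2, and the bar is the mean of each line. PSMB9 and TAPBP are lower on both MV4-11R arrays, TAP1 and NLRC5 are higher, and TAP2 and ERAP2 overlap.

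The 4 members on 6p, TAP1, TAP2, TAPBP and PSMB9, had 3 probe sets each. For PSMB9 and TAP1 the 3 gave the same values to 2 decimals, so they are no repeat measurement. The TAP2 probe sets gave differences of -0.01, -0.04 and 0.01, and those of TAPBP gave -0.62, -0.58 and -0.55. With each of the 33297 probe sets as a feature of its own, such copies included, neither PSMB9 (adjusted p = 0.0552) nor TAPBP (0.0657) passed.

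Much of 6p read lower in MV4-11R, but not evenly along the arm. At the start of the gene order, from DUSP22 to SNRNP48, GMDS (1.2), SERPINB1 (1.6), FARS2 (1.1), RIOK1 (1.4) and others rose. In the same stretch IRF4 (-1.2), ECI2 (-1.6) and LY86 (-1.2) fell. Of 546 measured 6p genes outside the class I and class II lists 90 fell and 34 rose (16.5% falling, against 7.13% of all genes), with a median of -0.14. Above the median level of all genes, 279 of these had a median of -0.25 and 76.7% were lower, against 45.6% of all genes above that level. On the long arm (6q) the 416 genes had a median of 0.00, and 7.45% fell. DNA copy number was not measured, so whether it moved with these values was not tested.

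The members were therefore set beside their neighbours, up to 20 genes on each side above the median level, leaving out the listed class I and class II genes. The unlisted class II gene HLA-DRB5, at -1.71, stayed in. The 40 neighbours of TAP1, TAP2 and PSMB9 had a median of -0.42, with 35 of 40 lower and 16 called. Those of TAPBP had a median of -0.48, with 37 of 40 lower and 18 called. The neighbours of B2M had a median of 0.16, those of ERAP1 and ERAP2 0.04, and those of NLRC5 0.17. TAPBP thus lay close to its neighbours, PSMB9 lower, and TAP1 and TAP2 higher.

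With the neighbours' median taken off MV4-11R, TAPBP went to -0.13 (SE 0.12, adjusted p = 0.497) and PSMB9 to -0.36 (SE 0.13, adjusted p = 0.130), and neither passed. TAP1 went to 0.72 (SE 0.15, adjusted p = 0.0264) and passed as a rise relative to its region. TAP2 went to 0.40 (SE 0.11, adjusted p = 0.0555). On other chromosomes NLRC5 went to 0.29 (SE 0.13, adjusted p = 0.2) and B2M to -0.45 (SE 0.15, adjusted p = 0.099), and neither passed. The subtracted median is itself an estimate from these arrays, and its error is not in the SE.

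**Figure D2:**
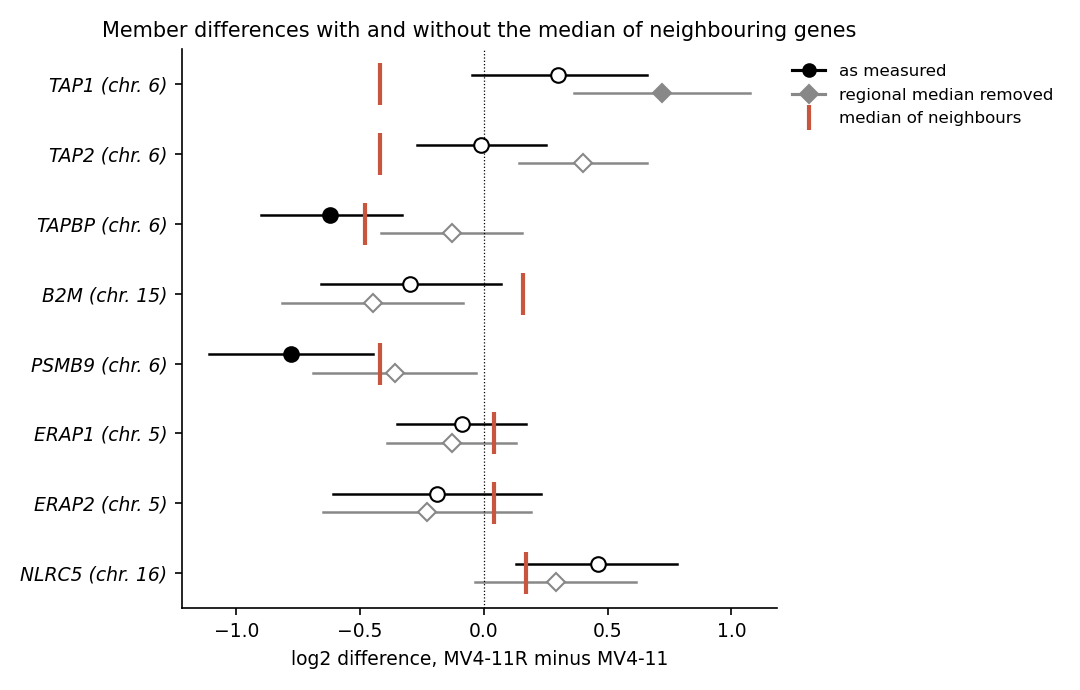
Log2 difference, MV4-11R minus MV4-11, of each member as measured (circles) and with the median of neighbouring genes removed (diamonds), with 95% intervals. Filled symbols passed at an adjusted p under 0.05, and the upright mark is the neighbours' median, which is -0.42 for TAP1, TAP2 and PSMB9 and -0.48 for TAPBP.

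Along 6p, TAP2, PSMB8, TAP1 and PSMB9 form a run of genes with class II genes on either side. In order, HLA-DOB (a class II chaperone subunit) fell by 0.60, TAP2 read -0.01, PSMB8, another immunoproteasome subunit, -0.05 (adjusted p = 0.862) and TAP1 0.30. PSMB9 then fell by 0.78, and the class II peptide-loading genes HLA-DMB and HLA-DMA fell by 2.56 and 1.61. The HLA-DOB call ended without replicate 1 of MV4-11 (adjusted p = 0.112) or either MV4-11R array (0.0784 and 0.0556), and with the regional median removed it stood at -0.18 (adjusted p = 0.363). Of 7 listed class II genes on 6p 6 were measured and 5 fell, with a median of -2.09, the largest fall being that of HLA-DPA1 (12.85 and 13.04 in MV4-11, 6.89 and 7.65 in MV4-11R, adjusted p = 4.32e-04). Related HLA genes can share probe signal, so these sizes are uncertain. Between the immunoproteasome genes on either side of TAP1, PSMB9 minus PSMB8 was 0.44 and 0.74 on the MV4-11 arrays and -0.06 and -0.24 on the MV4-11R arrays. Here too only the change between the lines, -0.73, can be read (exact permutation p = 0.333, the smallest possible).

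**Figure D3:**
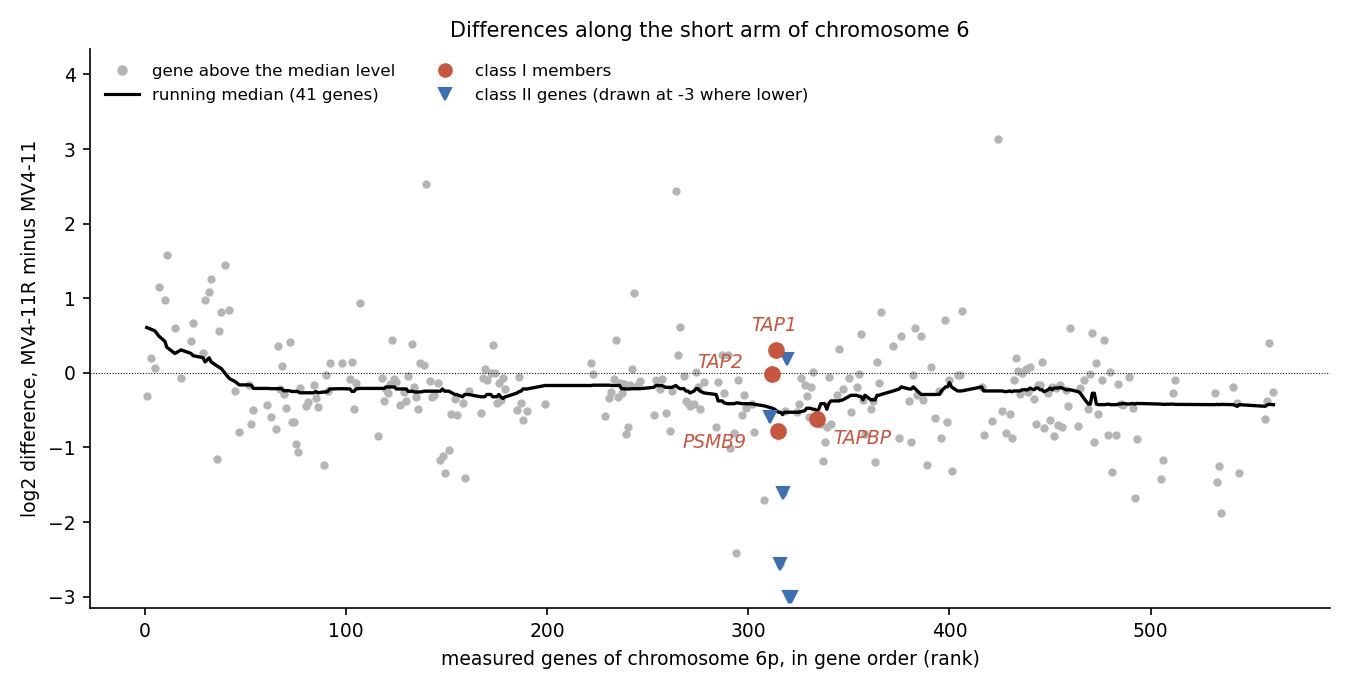
Log2 difference, MV4-11R minus MV4-11, against gene order on the short arm of chromosome 6, for 291 genes above the median level (grey), with their running median over 41 genes (line). Class I members are large circles and the 6 measured class II genes are triangles, with HLA-DPA1 and HLA-DPB1 drawn at -3. TAP1 and TAP2 lie above the running median, TAPBP and PSMB9 below it, and 5 of the 6 class II genes lie below it as well. At the left end, from DUSP22 to SNRNP48, many genes lie above 0.

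The rest of the pathway was read from lists fixed by role, which were chosen with earlier results of these data known. Of 61 measured genes in 6 lists 5 rose, 9 fell and 47 did not pass, with a median of -0.02, against 7.92% rising and 7.13% falling over all genes. For 11 of these 14 genes, leaving out at least 1 of the 4 arrays ended the call. IRF8, NFYA and ULBP3 kept theirs.

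The proteasome and loading lists held no gene that passed. PSMB9 and TAPBP, which act in these steps and fell, are counted with the members and not in these lists. Of 9 genes of the proteasome and its activator 0 rose and 0 fell (median 0.18, with 1 at an unadjusted p under 0.05 in limma). PSMB10, the third inducible subunit, had a difference of -0.18 (adjusted p = 0.530), and the constitutive subunits PSMB5, PSMB6 and PSMB7 had 0.23, 0.18 and 0.25 (adjusted p from 0.180 to 0.346). The largest difference was that of PSME3, a nuclear proteasome activator (0.40, adjusted p = 0.156). Of 8 genes of peptide loading and folding in the endoplasmic reticulum 0 rose and 0 fell (median 0.01, with 2 at an unadjusted p under 0.05 in limma). CALR (calreticulin), a chaperone of the loading complex, had -0.05 (adjusted p = 0.851), the tapasin relative TAPBPL -0.32 (adjusted p = 0.157), and UGGT1, a glucosyltransferase that checks protein folding, the largest at 0.35 (adjusted p = 0.136).

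Of 8 cytosolic peptidases 1 rose and 1 fell, where 15.1% of all genes passed. THOP1, which destroys many cytosolic peptides, read 7.81 and 7.83 in MV4-11 and 8.72 and 8.30 in MV4-11R (0.69, SE 0.16, adjusted p = 0.0369). With its neighbours' median removed the difference was 0.49 and did not pass (adjusted p = 0.093). TPP2, a large peptidase that trims proteasome products, fell by 0.99 (adjusted p = 0.0162), and its 40 neighbours on chromosome 13 were all lower, with a median about equal to its own fall. With that median removed TPP2 stood at 0.01 (adjusted p = 0.980). Leaving out either MV4-11 array or replicate 1 of MV4-11R ended the THOP1 call (adjusted p from 0.0956 to 0.106), and leaving out replicate 1 of MV4-11 ended that of TPP2 (0.0532).

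Of 13 class I-like molecules 1 rose, 2 fell and 10 did not pass (median -0.18), where 15.1% of all genes passed. Of those 10, 5 lay under the background guide (CD1A, CD1B, CD1C, CD1E and HFE). CD1D, which presents lipids to NKT cells, rose from 7.70 and 8.09 to 8.71 and 8.98 (0.95, SE 0.17, adjusted p = 0.0179). ULBP3, a ligand of the NK cell receptor NKG2D, fell from 6.97 and 7.15 to 6.07 and 6.01 (-1.02, SE 0.12, adjusted p = 0.00503), which is under the background guide, so the size of its fall is not exact. MICB, another NKG2D ligand, fell by 0.54 (adjusted p = 0.0391), and with the median of its neighbours on 6p, -0.18, removed it stood at -0.36 and did not pass (adjusted p = 0.116). CD1D did not pass once replicate 1 of MV4-11 was left out (adjusted p = 0.0523), nor MICB without either MV4-11 array (0.103 and 0.138) or replicate 1 of MV4-11R (0.138).

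Of 13 factors 1 rose, 5 fell and 7 did not pass (median -0.22), against 7.92% rising and 7.13% falling over all genes. IRF8, an interferon regulatory factor of monocytes and dendritic cells, fell from 11.90 and 11.86 to 10.33 and 10.51 (-1.46, SE 0.12, adjusted p = 0.00192), beside the fall in 3 of 10 myeloid markers given above, whose part was not tested. NFYA, the subunit of NF-Y that reads the Y box, fell by 0.83 (SE 0.13, adjusted p = 0.0117). It lies on 6p and still passed with its neighbours' median of -0.22 removed (-0.61, adjusted p = 0.0288). Of the RFX complex that carries NLRC5 and CIITA to promoters, RFXANK rose by 0.59 (adjusted p = 0.0273), which with its neighbours' median of 0.35 removed was 0.23 and did not pass (adjusted p = 0.258), while RFXAP (0.84, adjusted p = 0.0558) and RFX5 (-0.40, adjusted p = 0.0651) did not pass. The other falls, outside the rule for named genes and chosen after their values were seen, were of the class II transactivator CIITA (-0.72), IRF2 (-0.72) and CREB1 (-0.53). IRF1, the main interferon-induced activator of class I genes, differed by -0.04 (adjusted p = 0.916). RFXANK (adjusted p from 0.0736 to 0.108) and IRF2 (0.112 to 0.129) did not pass without either MV4-11 array or replicate 1 of MV4-11R, CIITA without either MV4-11 array (0.0528 and 0.0550), and CREB1 without any 1 of the 4 (0.0711 to 0.117).

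NLRC5 and CIITA, relatives that use the same promoter-bound factors, had differences of opposite sign. CIITA read 7.89 and 7.90 in MV4-11 and 7.29 and 7.06 in MV4-11R, both MV4-11R arrays being lower, whereas both NLRC5 arrays of that line were higher. Of the pair only the CIITA difference passed, and the difference between the 2 was not tested.

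Of 10 interferon receptors and signalling genes 2 rose, 1 fell and 7 did not pass (median -0.07), where 15.1% of all genes passed. The inhibitors SOCS1 (0.65, adjusted p = 0.0339) and PTPN2 (0.67, adjusted p = 0.0424), which dampen JAK signalling, rose, and the kinase JAK1 fell by 0.60 (adjusted p = 0.0205). With the median of its neighbours, 0.34, removed, PTPN2 stood at 0.32 and did not pass (adjusted p = 0.233), and after quantile normalization its adjusted p was 0.0516. The interferon gamma receptor chains IFNGR1 and IFNGR2 had differences of -0.27 (adjusted p = 0.294) and -0.34 (adjusted p = 0.134). SOCS1 did not pass without replicate 1 of MV4-11 or either MV4-11R array (adjusted p from 0.0690 to 0.128), and neither PTPN2 (0.104 to 0.122) nor JAK1 (0.0736 to 0.0791) did without either MV4-11 array or replicate 1 of MV4-11R.

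**Figure D4:**
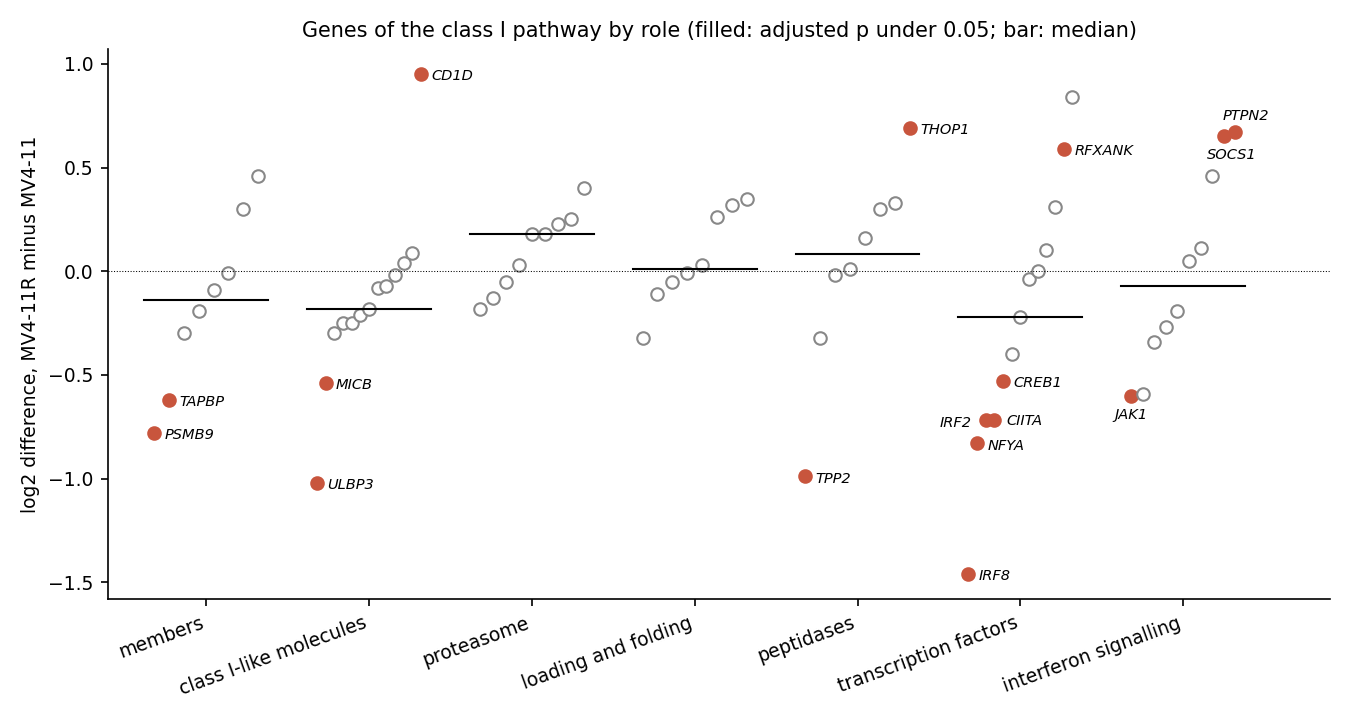
Log2 difference, MV4-11R minus MV4-11, of the 8 measured members and of 61 other pathway genes in 6 lists by role. Filled circles passed at an adjusted p under 0.05 and carry a name, and bars are list medians. No gene of the proteasome or loading lists is filled, but PSMB9 and TAPBP, which act in these steps, are filled among the members. Of 13 transcription factors 6 are filled, where 15.1% of all genes passed.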

How the data were processed

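RNA from 2 arrays each of MV4-11 and MV4-11R was hybridised to Affymetrix human gene arrays after biotin labelling, per the labels' protocols. The deposited log2 signal per probe set came, per the submitters' processing notes, from the authors' use of RMA and of Affymetrix Expression Console. Versions and genome build are not given in the sources used here. RMA compresses differences of dim genes. The number of arrays limits the precision.

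The annotation paired 19460 of 33297 probe sets with 1 gene, 1754 with several, and did not list 12083. Symbols were updated by Entrez ID in a RefSeq table (GRCh38.p14), in which 31 Entrez IDs found no match, and that table gave gene order. Genes up to PRIM2 on chromosome 6 were counted as 6p. The brightest probe set per gene was kept, with no filter on level.

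Genes were tested with limma 3.58.1 (lmFit, eBayes) under R 4.3.3. The tests were 2-sided and p-values were adjusted by Benjamini and Hochberg's method across 18417 genes. The fit had 2 residual degrees of freedom, 6.06 with the prior. The fit was also run on simulated data with independent noise. That checked the sign and mean bias of its estimates, not the reliability of calls on these arrays. Replicate numbers are shared by the lines but not described as a day or batch, so no block was used. From each list, up to 2 rises and 2 falls that passed were named, or the largest difference where none passed; others are added where a role or position calls for them. The members and lists were chosen with earlier results of these data known. Alternatives covered normalization, filter, probe set choice, variance model, block, region and each array left out.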

Additional observations from a re-analysis of the deposited data

How the results depend on the processing

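With an array left out, the number of members called ran from 0 to 2, all of them falls, the pathway falls from 4 to 8, the pathway rises from 0 to 5 and all genes called from 1588 to 2479. Testing every probe set on its own called 0 members, 3 pathway falls, 0 pathway rises and 1505 probe sets; more features enter that adjustment. With the regional shift removed 1 member was called, TAP1, as a rise, with 0 member falls and 2 pathway rises, and TAP2 turned from -0.01 to 0.40. TAP2 also turned, to 0.02, without MV4-11R replicate 2, its differences with an array left out running from -0.05 to 0.02, and ERAP2 turned from -0.19 to 0.03 without MV4-11R replicate 1 (range with an array left out, -0.41 to 0.03); the cause was not tested.

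With the replicate block 3 members were called, 1 of them a rise (NLRC5, 0.46, adjusted p = 0.0432), with 8 pathway rises and 3642 genes. Deviations of same-numbered arrays from their line means correlated at 0.26 over genes, and 2 pairs cannot show whether the numbers pair the cultures. Median centring, quantile normalization, a filter at the 25th percentile of level, the mean of a gene's probe sets and an intensity trend each left 2 members called, both falls. PSMB9 differences ran from -0.93 to -0.36 and those of TAPBP from -0.70 to -0.13 over all alternatives. HLA-E and a value for HLA-F alone were not analysed here, and protein and surface levels were not measured.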
